A study of Sus scrofa domesticus with 30 samples.

Results

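Osteopontin, integrin subunits and cell-surface mucins were described in the endometrium (the lining of the uterus) of pregnant gilts, at the stage when the pig conceptus begins to attach. The genes were chosen by symbol: SPP1 (osteopontin), the integrin subunits ITGAV, ITGB1, ITGB3, ITGB5 and ITGB6, and the mucin-type glycoproteins MUC1, MUC4, MUC16 and CD24. Of these 10 genes 8 had an entry in the mRNA table of 28224 gene models, while MUC16 and CD24 had no entry of that symbol and were not analysed here. All 8 lay above the table's floor of 1 in all 15 libraries and were among the 16819 genes tested.

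The endometrium was taken midway along the uterine horn of 15 gilts, young female pigs crossbred from Landrace, Yorkshire and Duroc stock, on pregnancy day 13 after artificial insemination. The immunocrit (iCrit) is a measure in blood of the immunoglobulin a piglet has absorbed from colostrum. On the first day of life it had been low in 7 gilts (low iCrit) and high in 8 gilts (high iCrit). All 15 were pregnant, since the authors removed 1 low iCrit animal without a pregnancy. The study asked whether early milk-borne signalling leaves a trace in the adult uterus, and here the comparison was low with high iCrit.

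Osteopontin is a secreted glycoprotein of the extracellular matrix whose RGD motif is bound by integrins, and in pigs it is made by the uterine luminal epithelium as the conceptus elongates. Integrins are pairs of an alpha and a beta chain that tie the cell's surface to the matrix, and ITGAV can pair with each of ITGB1, ITGB3, ITGB5 and ITGB6. Mucins such as MUC1 and MUC4 are large, heavily glycosylated proteins of the apical surface that can cover adhesion receptors.

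Values are the authors' normalized expression values on their own scale, which carry no correction for transcript length, so levels are compared between animals. Where genes of a list are named for the highest values, this orders the deposited values and not transcript numbers. Depth, with each mate of a pair counted as a read, was estimated at 29.2 to 63.4 M reads (M, 1e6) in low iCrit and 23.7 to 39.6 M reads in high iCrit libraries. The fewest estimated reads behind any value of these genes were 136, for ITGB3. Earlier work on these data had found 3 libraries apart from the rest, namely low iCrit replicate 2 and high iCrit replicates 7 and 8, and results that rest on them are given with and without them. Epithelial markers were plentiful: 13 of 14 were tested, and KRT7 was at the floor in all libraries. The summed epithelial markers spanned 122450 to 200870 in low iCrit gilts and 150480 to 213960 in high iCrit gilts. In whole tissue, fewer cells of a type and less RNA per cell cannot be told apart.

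No member differed between the groups beyond the spread between animals. In limma, a linear model fitted across all genes tested, 0 of the 8 genes passed a Benjamini-Hochberg adjusted p under 0.05, and the background was the same, with 0% of the 16819 genes called. At an unadjusted p under 0.05 the count was also 0 of 8, where the background was 1200 genes or 7.13% (455 genes or 2.71% higher and 745 genes or 4.43% lower in low iCrit). That split was 600 higher and 603 lower under quantile normalization, and 569 and 603 under median centring of each library. On the log2 scale 2 of the 8 genes had a higher and 6 a lower mean in low iCrit endometrium, with a median difference of -0.11. Over all genes tested 8131 had a higher and 8688 a lower mean, with a median of -0.01. The members' count turned round without the 3 libraries apart, to 6 higher (SPP1, ITGAV, ITGB1, ITGB5, MUC1 and MUC4) and 2 lower (ITGB3 and ITGB6), with a median of 0.05, and without low iCrit replicate 2 alone it was 4 and 4. The intervals were wide for several genes, so the absence of a call does not show equal levels.

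**Figure D1:**
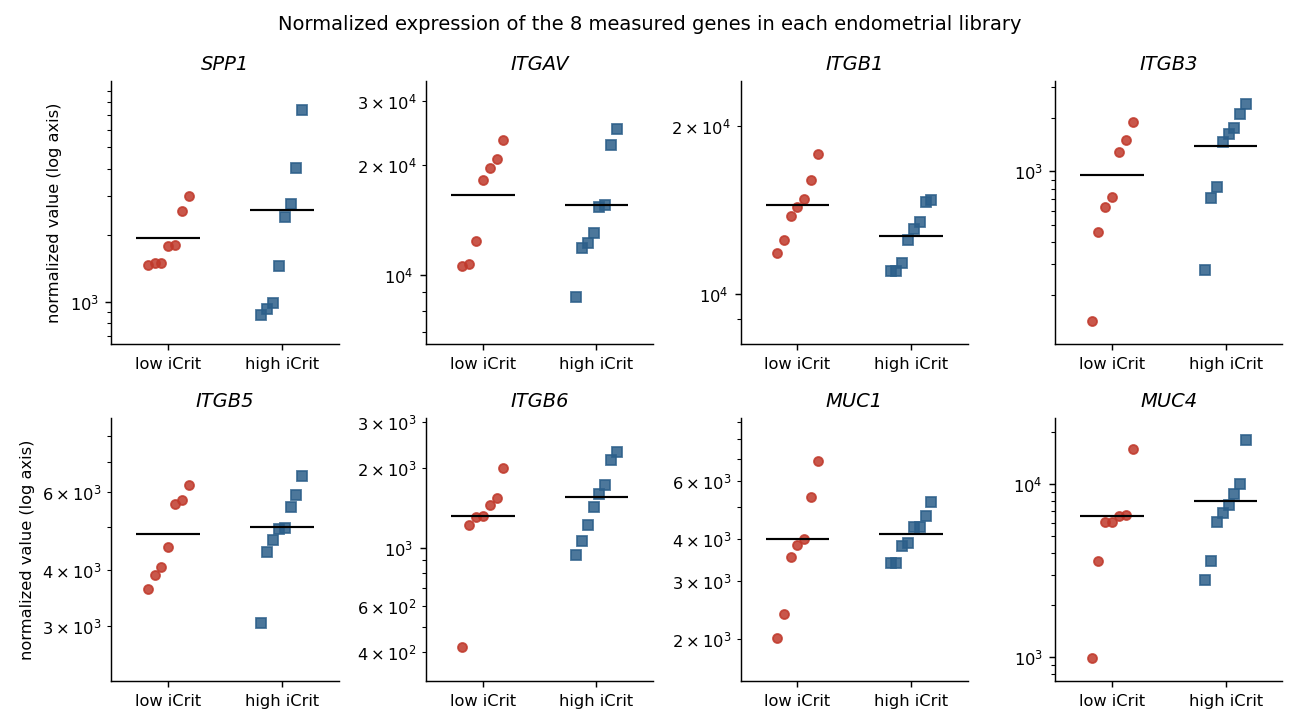
Normalized expression value (log axis, no unit beyond the authors' scale) of the 8 measured genes in each library, with low iCrit (circles, n = 7) left of high iCrit (squares, n = 8) and a line at the group mean of the linear values; points are ordered by value within a group. The groups overlapped for every gene, SPP1 reached 7381 in 1 high iCrit library, and ITGB3, ITGB6, MUC1 and MUC4 were lowest in the same low iCrit library.

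The ligand, SPP1, lies on chromosome 8 (Sscrofa11.1, chr8:131077786-131085334, minus strand). Its value ranged from 1459 to 3021 (median 1784) in low iCrit gilts, and from 866 to 7381 (median 1929) in high iCrit gilts. All 7 low iCrit libraries lay within the range of the high iCrit libraries, where replicates 7 and 8 were highest and replicates 1, 4 and 6 lowest. SPP1 averaged 1949 ± 609 in low iCrit and 2599 ± 2225 in high iCrit endometrium (mean ± SD, 7 and 8 gilts). The log2 difference was -0.07 ± 0.40 (SE), with a 95% interval of -0.92 to 0.79 and a limma adjusted p of 0.980. Its direction was not stable. The difference was 0.47 without the 3 libraries apart, 0.20 without high iCrit replicate 7 alone and 0.00098 without high iCrit replicate 2. With all libraries kept it was 0.17 with estimated reads as a covariate and 0.013 with quality weights. None of these was called. High iCrit replicate 7, highest for SPP1, also had the fewest estimated reads of all libraries, 23.7 M, and the part of depth in its value was not tested.

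SPP1 scattered more widely among high iCrit than among low iCrit gilts. On the log2 scale the mean absolute deviation from the group median was 0.30 in low iCrit and 0.93 in high iCrit gilts, a difference of -0.63 (exact two-sided permutation p = 0.00606). High iCrit replicates 1, 3, 4 and 6 lay at 866 to 1446, below every low iCrit library, and high iCrit replicates 7 and 8 lay at 7381 and 4012, above every low iCrit library. The difference in spread kept an unadjusted p under 0.05 when any single library was left out, with values from -0.71 to -0.43. Without the 3 libraries apart it was -0.29 (exact permutation p = 0.141). The same exact test over all genes tested called 0% after adjustment and gave an unadjusted p under 0.05 for 4.3% of genes (2.97% with the smaller and 1.33% with the larger spread in low iCrit), and the adjusted p of SPP1 was 0.998. Of the other members none reached an unadjusted p under 0.05 in that test. The nearest was MUC1, with the wider spread in low iCrit (0.45 against 0.18 in high iCrit, exact permutation p = 0.0873), whose unadjusted exact p fell under 0.05 when low iCrit replicate 3, 4 or 7 was left out.

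SPP1 is also a product of macrophages, so macrophage markers are given beside it. All 10 were tested and none was at the floor throughout. Their sum ranged from 6814 to 15357 in low iCrit and from 6057 to 15989 in high iCrit gilts, and across the 15 animals the mean log2 marker level and SPP1 had r = 0.32 and Spearman's rho = 0.44 (permutation p adjusted over 88 gene and marker relations = 0.709). That r was 0.10 without the 2 animals farthest from the median of the marker level and 0.49 without the 3 libraries apart, and it was -0.23 within low iCrit and 0.44 within high iCrit gilts. Conceptus trophoblast markers, 11 of 15 tested, summed to 6326 to 10471 in low iCrit and 4671 to 11225 in high iCrit gilts, with r = 0.20 to SPP1 (adjusted permutation p = 0.837). The marker with the highest values, GATA2, is not exclusive to trophoblast. Its means were 7623 in low iCrit and 6760 in high iCrit gilts, so the sums were mostly GATA2 and do not measure trophoblast content. IFNG averaged 71.8 ± 82.2 in low iCrit and 376 ± 982 in high iCrit gilts (SD), with a highest value of 2803.5. No further marker of this list exceeded 278 in any library. The mean trophoblast marker level was highest in high iCrit replicate 8, which had the next to highest SPP1, at 1.51 relative to the 15 libraries. In high iCrit replicate 7, which had the highest SPP1, it was -0.61. Without the 2 animals farthest from the median of the trophoblast markers, r to SPP1 was -0.21. To the epithelial markers SPP1 had r = -0.05 and rho = -0.12, and r = -0.50 without the 3 libraries apart. Larger r than for macrophages were -0.60 to platelet and megakaryocyte, 0.45 to endothelium, 0.41 to T, NK and B cell and -0.40 to smooth muscle markers. None of these passed either (adjusted permutation p from 0.347 to 0.497).

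ITGAV, the alpha v chain shared by several osteopontin-binding integrins, lies at chr15:91604666-91711843 (plus strand). Its value ran from 10608 to 23453 (median 18257) in low iCrit gilts and from 8742 to 25168 (median 14170) in high iCrit gilts. Low iCrit replicates 1, 2 and 6 lay at 10608 to 12388 and the other 4 at 18257 to 23453, and all 7 were within the high iCrit range. In high iCrit gilts replicates 2 and 5 stood at 22736 and 25168 and the other 6 at 8742 to 15601. The means were 16553 ± 5236 and 15587 ± 5625 (SD), with a log2 difference of 0.10 ± 0.24 (95% interval -0.41 to 0.60, limma adjusted p = 0.956), and -0.06 with the epithelial markers as a covariate.

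ITGB1, the beta chain with the most alpha partners, lies at chr10:56078393-56130608 (minus strand) and was the steadiest member. It ran from 11836 to 17806 (median 14309) in low iCrit and from 10970 to 14730 (median 12781) in high iCrit gilts. Low iCrit replicates 1, 5 and 6 lay above every high iCrit library, and the other 4 lay within the high iCrit range. The log2 difference of 0.18 ± 0.11 had the narrowest interval of the 8 genes, -0.05 to 0.41 (limma adjusted p = 0.763). Its SD over the 15 libraries was 0.20 on the log2 scale, below that of the median gene tested.

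ITGB3, the beta chain of the vitronectin receptor, lies at chr12:16694466-16752228 (minus strand) and had the largest log2 difference and the largest SD among the members. It ran from 143 to 1896 (median 721) in low iCrit and from 278 to 2397 (median 1543) in high iCrit gilts. Low iCrit replicate 2 was lowest of all and high iCrit replicate 4 next lowest, while 6 of the 7 low iCrit libraries lay within the high iCrit range. The means were 950 ± 629 in low iCrit and 1393 ± 732 in high iCrit gilts (SD). The log2 difference was -0.67 ± 0.53, with an interval of -1.80 to 0.46 (limma adjusted p = 0.832). Leaving out low iCrit replicate 2 gave -0.28, and leaving out high iCrit replicate 4 gave -0.97. ITGB3 varied 16.8-fold over the 15 animals, with an SD of 1.16 on the log2 scale at percentile 94.8 of all genes tested. Since ITGB3 is also a platelet protein, platelet and megakaryocyte markers are given beside it. They summed to 663 to 1080 in low iCrit and 726 to 1157 in high iCrit gilts, with 5 of 7 tested, and had r = -0.16 to ITGB3 (adjusted permutation p = 0.918).

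ITGB5, a further partner of ITGAV, lies at chr13:135468111-135587483 (plus strand). It ran from 3632 to 6227 (median 4501) in low iCrit and from 3050 to 6515 (median 4965) in high iCrit gilts, with all low iCrit libraries inside the high iCrit range. The log2 difference was -0.05 ± 0.16 (interval -0.39 to 0.28, limma adjusted p = 0.963), and 0.05 without the 3 libraries apart.

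ITGB6, a beta chain of epithelial cells that pairs with ITGAV alone, lies at chr15:67041516-67175409 (minus strand). It ran from 421 to 2007 (median 1316) in low iCrit and from 937 to 2305 (median 1513) in high iCrit gilts. Low iCrit replicate 2 lay below every high iCrit library, and the other 6 low iCrit libraries lay within the high iCrit range. The means were 1323 ± 475 and 1555 ± 495 (SD), and the log2 difference of -0.29 ± 0.28 had an interval of -0.88 to 0.30 (limma adjusted p = 0.865). Without low iCrit replicate 2 it was -0.03.

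**Figure D2:**
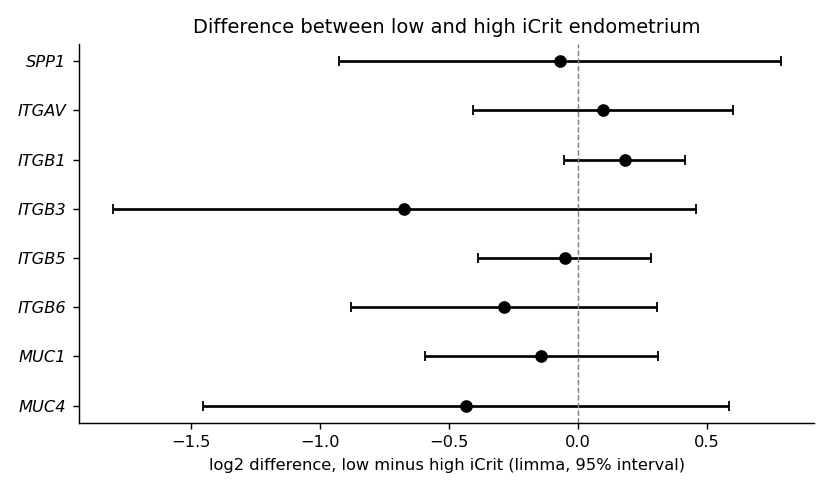
Log2 difference in normalized value, low minus high iCrit, for the 8 genes (points, limma) with 95% intervals (bars); the dashed line marks 0. Each interval includes 0, and the widest, for ITGB3, runs from -1.80 to 0.46.

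Ratios of the beta chains to ITGAV were formed within each library, which makes them independent of library scaling. They are ratios of unscaled transcript values and say nothing of protein pairs. ITGB3 over ITGAV ran from 0.0135 to 0.0914 (median 0.0591) in low iCrit and from 0.0318 to 0.119 (median 0.0937) in high iCrit gilts. The mean log2 ratio differed by -0.77 (exact permutation p = 0.0710, adjusted over 4 ratios 0.263). Leaving out single libraries moved it between -0.96 and -0.48, and the unadjusted exact p fell below 0.05 when low iCrit replicate 7 or high iCrit replicate 4 was left out. ITGB6 over ITGAV differed by -0.39 (exact permutation p = 0.132, adjusted 0.263), and by -0.54 with an unadjusted exact p under 0.05 when low iCrit replicate 1 was left out. For ITGB5 the ratio differed by -0.15 and for ITGB1 by 0.08 (adjusted exact permutation p = 0.642 and 0.740).

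MUC1, a membrane mucin of the apical epithelial surface, lies at chr4:94626317-94631194 (plus strand). It ran from 2020 to 6881 (median 3845) in low iCrit and from 3388 to 5192 (median 4122) in high iCrit gilts. Low iCrit replicates 2 and 5 lay below every high iCrit library and low iCrit replicates 1 and 6 above every one, so the low iCrit values enclosed the high iCrit values. The means were nearly equal, 4004 ± 1677 in low iCrit and 4135 ± 631 in high iCrit gilts (SD). The log2 difference was -0.14 ± 0.21 (interval -0.59 to 0.31, limma adjusted p = 0.918), and 0.02 without the 3 libraries apart.

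MUC4, a membrane mucin with EGF-like domains, lies at chr13:134192412-134248435 (plus strand), 1.22 Mb from ITGB5. It ran from 985 to 15948 (median 6072) in low iCrit and from 2779 to 17967 (median 7226) in high iCrit gilts. Low iCrit replicate 2 was lowest and high iCrit replicate 8 highest, and 6 of the 7 low iCrit libraries lay inside the high iCrit range. The means were 6550 ± 4631 in low iCrit and 7976 ± 4718 in high iCrit gilts (SD). The log2 difference was -0.43 ± 0.48 (interval -1.45 to 0.58, limma adjusted p = 0.889), and -0.04 without low iCrit replicate 2 and 0.04 without the 3 libraries apart. MUC4 had the widest range of the members, 18.2-fold over the 15 animals.

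Among these 8 genes the low values tended to fall in the same animals. Low iCrit replicate 2 held the lowest of all 15 values for 4 genes (ITGB3, ITGB6, MUC1 and MUC4) and was among the lowest 3 for 6 of the 8. High iCrit replicate 4 held the lowest value for ITGAV and ITGB5 and was among the lowest 3 for 7 of the 8, ITGB1 being the exception. At the other end, low iCrit replicate 7 was among the highest 3 for SPP1, ITGB3, ITGB5, ITGB6 and MUC4. Low iCrit replicate 2 also had the smallest sum of values over all genes of the 15 libraries, 32.6 M. The share of all genes tested that was lowest or highest in these libraries was not computed. These counts therefore do not set the 8 genes apart from other genes.

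Across the 15 animals 25 of the 28 pairs of these genes had a positive correlation of log2 values, and 7 passed a permutation test adjusted over the 28 pairs by Pearson's r, of which 3 also passed by Spearman's rho. The 3 were ITGAV with ITGB3, ITGB3 with ITGB6 and ITGB5 with MUC4. Neither SPP1, ITGB1 nor MUC1 was in a pair that passed. The share of positive or passing pairs among all genes tested was not computed. These counts therefore do not show that the genes vary together more than other genes do.

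**Figure D3:**
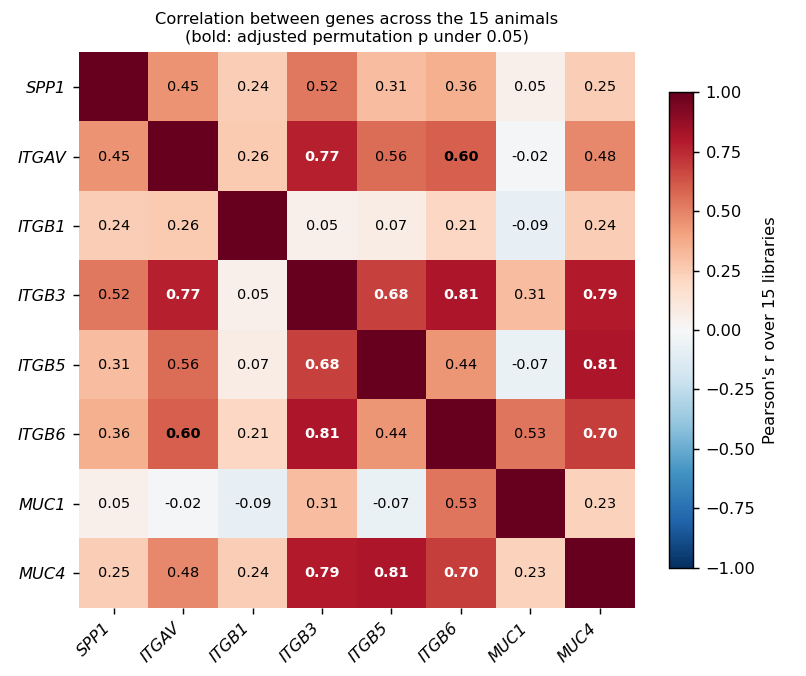
Pearson's r between the log2 values of each pair of the 8 genes over the 15 libraries, by colour and printed number, with bold type where the permutation p adjusted over 28 pairs was under 0.05. The 7 such pairs all lie among ITGAV, ITGB3, ITGB5, ITGB6 and MUC4.

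ITGAV and ITGB3 had r = 0.77 and rho = 0.83 (adjusted permutation p = 0.00411 and 0.00770). Within low iCrit gilts r was 0.84 and within high iCrit gilts 0.87 (exact permutation p = 0.0115 and 0.00285). Without the 2 animals farthest from the median of ITGAV, high iCrit replicates 4 and 5, r was 0.70, and without the 3 libraries apart 0.84 (adjusted permutation p = 0.0134).

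ITGB5 and MUC4 had r = 0.81 and rho = 0.80 (adjusted permutation p = 0.00411 and 0.00770), with r = 0.77 within low iCrit and 0.90 within high iCrit gilts. Without the 2 animals farthest from the median of ITGB5, low iCrit replicate 2 and high iCrit replicate 4, r was 0.78. This pair and the previous one passed when any single library was left out, with r from 0.77 to 0.84 for ITGB5 and MUC4 and from 0.72 to 0.83 for ITGAV and ITGB3.

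The other pairs leaned on fewer animals. ITGB3 and ITGB6 had r = 0.81 and rho = 0.73 (adjusted permutation p = 0.00411 and 0.0258), and without low iCrit replicate 2, the lowest animal for both, r was 0.64 and no longer passed. Without the 2 animals farthest from the median of ITGB3, low iCrit replicate 2 and high iCrit replicate 4, r was 0.57 (unadjusted permutation p = 0.0404). ITGB3 and MUC4 had r = 0.79 and rho = 0.67 (adjusted permutation p = 0.00455 and 0.0516), which became r = 0.46 without the same 2 animals. It was 0.63 without the 2 animals farthest from the median of MUC4 (unadjusted permutation p = 0.0218) and 0.79 without the 3 libraries apart (adjusted permutation p = 0.0159), so its loss depended on which animals were left out. ITGB3 and ITGB5 had r = 0.68 and rho = 0.57 (adjusted permutation p = 0.0292 and 0.118), with r = 0.38 without low iCrit replicate 2 and high iCrit replicate 4, on which it rested.

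ITGB6 and MUC4 had r = 0.70 and rho = 0.49 (adjusted permutation p = 0.0421 and 0.192), with r = 0.95 in low iCrit and 0.16 in high iCrit gilts, a difference that was not tested. Without the 2 animals farthest from the median of ITGB6 r was 0.37, so it also rested on them. ITGAV and ITGB6 had r = 0.60 and rho = 0.63 (adjusted permutation p = 0.0484 and 0.0783), and 0.52 without the 2 animals farthest from the median of ITGAV.

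No correlation of the ligand with a receptor chain passed the adjustment. SPP1 and ITGAV had r = 0.45 and rho = 0.53 (adjusted permutation p = 0.206 and 0.140), and SPP1 and ITGB3 r = 0.52 and rho = 0.61 (adjusted permutation p = 0.140 and 0.0832). High iCrit replicates 7 and 8, which had the highest SPP1, had ITGAV values of 15328 and 15601, in the middle of the range. After the estimated reads per library were taken out of both genes, an alternative chosen after seeing the data, r was 0.66 for SPP1 with ITGAV and 0.64 for SPP1 with ITGB3 (adjusted permutation p = 0.0313 and 0.0346). SPP1 itself had r = -0.44 to the estimated reads (adjusted permutation p = 0.458). With ITGB6, ITGB5 and ITGB1, r was 0.36, 0.31 and 0.24. Without the 3 libraries apart r was 0.67 for SPP1 with ITGAV, 0.58 with ITGB3, 0.70 with ITGB6, 0.39 with ITGB5 and 0.64 with ITGB1, and none passed (adjusted permutation p from 0.0670 to 0.381). Single libraries also moved these values, with r for SPP1 and ITGB5 at 0.13 without high iCrit replicate 4 and r for SPP1 and ITGB1 at 0.62 without high iCrit replicate 7.

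**Figure D4:**
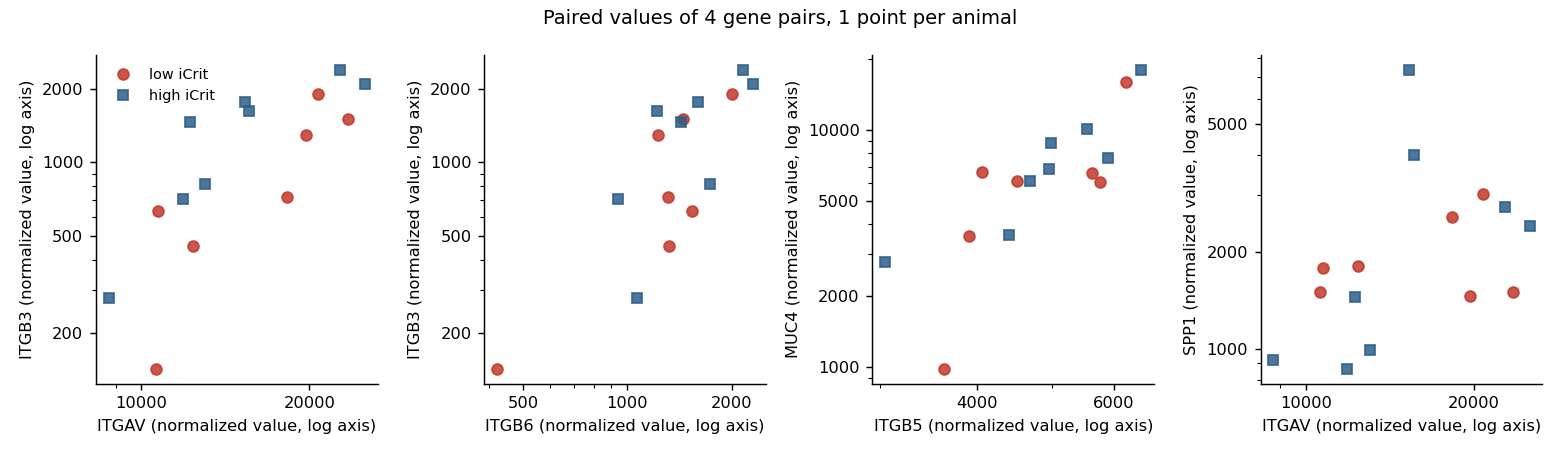
Values of 4 gene pairs in each animal (both axes logarithmic, normalized values), with low iCrit as circles and high iCrit as squares: ITGB3 against ITGAV, ITGB3 against ITGB6, MUC4 against ITGB5, and SPP1 against ITGAV. The ITGAV and ITGB3 points rise together in both groups, while the highest SPP1 value, 7381, belongs to an animal with a middle ITGAV value of 15328.

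Cell type markers were set beside each gene as the mean log2 level of each of 10 lists, with the estimated reads as an 11th measure, 88 relations in all, and 0 passed the adjustment. The closest was MUC1 with granulocyte markers, at r = 0.78 and rho = 0.68 (permutation p = 0.000680, adjusted 0.0598), with r = 0.63 without the 2 animals farthest from the median of the markers. ITGB6 had r = 0.78 and rho = 0.59 to the same markers (adjusted permutation p = 0.223), and r = 0.35 without those 2 animals. All 7 granulocyte markers were in the table and 6 were tested. S100A9 had the highest values, with means of 20819 in low iCrit and 37452 in high iCrit gilts. MPO and CXCR2 stayed near the floor, at no more than 1.59 and 7.17 in any library. CSF3R had the higher mean in low iCrit, 188 against 129, while S100A8, S100A9, S100A12, ELANE and CXCR2 had the lower one. The sum of the granulocyte markers ran from 961 to 43248 (median 32134) in low iCrit and from 14479 to 75690 (median 54695) in high iCrit gilts. The mean log2 level of these markers was lowest in low iCrit replicate 2, at -2.83 relative to the 15 libraries. Their part in the values of MUC1 and ITGB6 was not tested. S100A8 and S100A9 are also made by epithelium. MUC1 had r = 0.52 to the epithelial markers and 0.53 to the smooth muscle markers (adjusted permutation p = 0.347 each). These were 0.14 and 0.57 without the 3 libraries apart. Without the 2 animals farthest from the median of each marker level they were 0.23 and 0.40.

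For each gene the 3 genes most alike across the 15 libraries were found among 8162 named genes whose mean was at least 763, as a description without a test. ITGAV was closest to EFCAB14 (r = 0.93), BCOR (0.88) and PRKAA2 (0.87). ITGB3 was closest to BCAS1 (r = 0.94), STEAP2 (0.94) and TRAF3IP2 (0.92), and ITGB6 to PPP1R14C (0.90), PPP3CA (0.89) and CDKN2B (0.88). The 3 values for ITGB6 were 0.77, 0.65 and 0.69 without the 3 libraries apart. MUC4 was closest to APLP2 (r = 0.93), SIPA1L1 (0.90) and ATP6V1B1 (0.89), and ITGB5 to PAM (0.90), DPP4 (0.89) and CTSF (0.89). Those for MUC4 were 0.85, 0.66 and 0.75 without the 3 libraries apart.

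Of the remaining members, MUC1 was closest to TEX264 (r = 0.91), HDAC5 (0.91) and ICA1 (0.89). ITGB1 was closest to NOM1 (r = 0.87), CALU (0.86) and PITPNB (0.84). SPP1 was closest to LAPTM4A (r = 0.82), MRPS34 (0.81) and SLA-8 (0.80), and without the 3 libraries apart MRPS34 stood at 0.58. No member was among the closest 3 of another.

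The wider adhesion and mucin machinery was described by 8 lists of 143 genes, of which 133 were tested, 73 with a higher and 60 with a lower mean log2 value in low iCrit endometrium. The split turned to 58 and 75 without low iCrit replicate 6, so it carries no direction. None of the 133 was called in limma, and 8 had an unadjusted p under 0.05, 4 higher and 4 lower, which as a share of the genes tested lies near the background of 7.13%. Their adjusted p lay between 0.672 and 0.700.

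**Figure D5:**
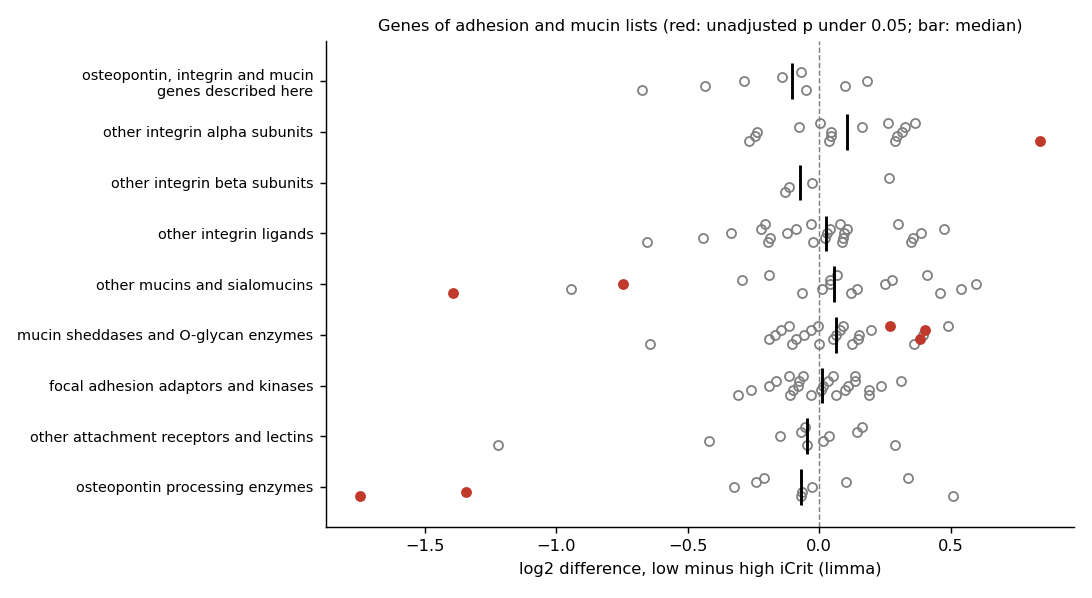
Log2 difference, low minus high iCrit (limma), of each tested gene of the described set and of 8 related lists, with the list median as a vertical bar and filled points where the unadjusted p was under 0.05. The medians lie between -0.11 and 0.10, and none of the genes passed the adjustment over all genes.

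Of the other integrin alpha subunits 16 of 17 were tested, 12 higher and 4 lower, with a median of 0.10. The split was 9 and 7 without high iCrit replicate 4, where none was at an unadjusted p under 0.05. ITGAM, the alpha chain of a myeloid cell integrin, had values of 310 ± 152 in low iCrit and 181 ± 112 in high iCrit gilts (SD), with a log2 difference of 0.84 ± 0.35 (limma unadjusted p = 0.0268, adjusted 0.672). The highest values were those of ITGA6, a laminin receptor chain, at 14610 ± 3314 in low iCrit and 12446 ± 3848 in high iCrit gilts, and ITGA2, a collagen receptor chain, at 10991 ± 4031 and 8937 ± 3796. Of the other beta subunits all 4 were tested, 1 higher and 3 lower, or 2 and 2 under quantile normalization, where ITGB4 turned positive. ITGB4, the partner of ITGA6 in hemidesmosomes, stood at 13564 ± 4326 in low iCrit and 13470 ± 2968 in high iCrit gilts, and ITGB8, a further partner of ITGAV, at 11188 ± 2132 and 9735 ± 3409.

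Of the other integrin ligands 24 of 26 were tested, 13 higher and 11 lower, or 9 and 15 without low iCrit replicate 6. Their median was 0.02, with none at an unadjusted p under 0.05. The highest values were those of CCN2, a matricellular protein, at 63595 ± 13797 in low iCrit and 59113 ± 13197 in high iCrit gilts. VWF, an endothelial adhesion protein, followed at 12955 ± 3868 and 12074 ± 2722.

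Of the other mucins and sialomucins 18 of 22 were tested, 12 higher and 6 lower, with a median of 0.06. The pair at an unadjusted p under 0.05 were both lower. With the epithelial markers as a covariate only 1 gene of this list was at that threshold, and it was higher. Without the 3 libraries apart there were 3, of which 2 were higher. MUC20, a membrane mucin, had 24.1 ± 14.5 in low iCrit and 58.3 ± 36.6 in high iCrit gilts, with a log2 difference of -1.39 ± 0.53 (limma unadjusted p = 0.0179, adjusted 0.672). MUC13, a membrane mucin of epithelial surfaces, had 310 ± 69.2 and 611 ± 456, a difference of -0.75 ± 0.33 (unadjusted p = 0.0349, adjusted 0.688). The MUC13 range was 195 to 422 in low iCrit and 251 to 1662 in high iCrit gilts, and MUC20 ranged from 2.10 to 40.8 and from 21.5 to 123, so both overlapped. The highest values were those of CD164, a sialomucin, at 35021 ± 6078 in low iCrit and 31900 ± 2854 in high iCrit gilts, and CD34, a sialomucin of endothelium, at 4557 ± 1058 and 4501 ± 1335.

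Of the mucin sheddases and O-glycan enzymes 25 of 27 were tested, 14 higher and 11 lower, with a median of 0.06. The 3 at an unadjusted p under 0.05 were all higher in low iCrit. C1GALT1, which builds the core of mucin O-glycans, had 1396 ± 145 in low iCrit and 1158 ± 114 in high iCrit gilts, with a log2 difference of 0.27 ± 0.09 (limma unadjusted p = 0.0101, adjusted 0.672). GALNT7, which adds further GalNAc residues, had 799 ± 145 and 605 ± 119, a difference of 0.40 ± 0.15 (unadjusted p = 0.0167, adjusted 0.672). MMP14, a membrane protease that can shed MUC1, had 10423 ± 3434 and 7752 ± 1279, a difference of 0.38 ± 0.17 (unadjusted p = 0.0405, adjusted 0.700). The highest values were those of GALNT1, an enzyme that starts O-glycans, at 12253 ± 4112 in low iCrit and 12931 ± 3677 in high iCrit gilts, and B4GALT1, a galactosyltransferase, at 10182 ± 3496 and 9017 ± 2282.

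All 24 focal adhesion adaptors and kinases, which link integrin tails to actin, were tested, 13 higher and 11 lower, or 8 and 16 with estimated reads as a covariate. Their median was 0.01, with none at an unadjusted p under 0.05. ACTN4 stood at 16304 ± 5819 in low iCrit and 14395 ± 2829 in high iCrit gilts and TLN1, which binds integrin tails, at 12748 ± 1251 and 12469 ± 2735. Of the other attachment receptors and lectins 11 of 12 were tested, 5 higher and 6 lower, again with none at that threshold. LGALS3, a galactose-binding lectin, stood at 15027 ± 7912 in low iCrit and 14555 ± 5384 in high iCrit gilts.

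All 11 osteopontin processing enzymes were tested, 3 higher and 8 lower, or 5 and 6 without low iCrit replicate 1, with a median of -0.07. The 2 at an unadjusted p under 0.05 were both lower. Neither was at that threshold without low iCrit replicate 2, or with estimated reads or the epithelial markers as a covariate. MMP7, a protease that cleaves osteopontin, had 94.7 ± 63.3 in low iCrit and 268 ± 237 in high iCrit gilts, with a log2 difference of -1.35 ± 0.58 (limma unadjusted p = 0.0334, adjusted 0.688). MMP12, a macrophage protease, had 4.87 ± 4.36 and 29.8 ± 40.1, close to the floor in some libraries of both groups, with a difference of -1.75 ± 0.78 (unadjusted p = 0.0387, adjusted 0.694). The highest values were those of ACP5, a phosphatase also known as uteroferrin in the pig uterus, at 94511 ± 34808 in low iCrit and 87949 ± 30411 in high iCrit gilts, and TGM2, which crosslinks osteopontin, at 38357 ± 13278 and 47612 ± 15854.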

How the data were processed

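Endometrial poly(A) RNA of 15 gilts (7 low and 8 high iCrit, 1 library each, paired-end 50 bp reads from RNA with an integrity number of 7.5 or more, per the labels' protocols) was compared by the feeding label, and replicate numbers follow the order of the records and pair no animals. The authors deposited 1 table of normalized expression values, used as a signal on a linear scale without negative values and with a floor of 1. For the aligner, counting tool, genome build and scaling, nothing is stated in the sources used here. The coordinates of all 8 genes were the same as in a Sscrofa11.1 gene table. Small-RNA libraries of the series were not used, and 0 per-sample columns were left unmapped.

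In each library low values came mostly in steps of 1.07 to 3.07, read as a pair of mates, with others midway between, so a single read was taken as worth 0.537 to 1.54 and the depths are counts of single reads (11.8 to 31.7 M pairs). With a tolerance of 0.05, 92.5% to 94.1% were whole, which gave the depth estimate but no count test. Values were taken as log2(value + 1), which understates changes of low genes, for genes above the floor in at least 7 libraries. The contrast of low minus high iCrit was tested in limma 3.58.1 (R 4.3.3) using the intensity trend and no covariate, since no batch is labelled, with Benjamini-Hochberg adjustment over 16819 genes. Ratios and spreads were tested by exact two-sided permutation over all splits into 7 and 8 animals, and correlations with 100000 permutations (Python 3.11.15, numpy 2.4.6, pandas 2.3.3, scipy 1.17.1, matplotlib 3.10.9). Fits were tested on simulated data. P-values measure the spread between animals, and errors cover no step before the table. Alternatives were another or no pseudocount, other filters and scalings, no trend, quality weights, covariates, and libraries left out.

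The members, lists, markers and tests were chosen with earlier results of these data known. Of each list, genes at an unadjusted p under 0.05 (up to 4) and the 2 with the highest mean values were named, except 1 that is not reported here. CCN2 was matched by its older symbol. An order of levels per length was planned but not made, since transcript lengths were not used here, and the correlations cover 28 pairs because 8 genes had an entry. The treatment of reads shared by similar genes is likewise unknown here.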

Additional observations from a re-analysis of the deposited data

Results flagged for a closer look

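In low iCrit gilts MUC4 stood at 15948 in replicate 7, far above the other 6, of which the next highest was 6658. On the linear scale the gap was 0.621 of the group's whole range, above the critical value of 0.568 for 7 samples. The rule was not applied to log2 values. It was 1 such value among the 24 groups examined (8 genes and 4 ratios in each of low and high iCrit). Chance gives about 1 in 20 groups where values are normally distributed, which was not tested here. High iCrit replicate 8 reached a higher MUC4 value, 17967. Without low iCrit replicate 7 the MUC4 difference was -0.71, which was not called. The same animal was among the highest 3 of the 15 for SPP1, ITGB3, ITGB5 and ITGB6. Why it was high was not tested.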

How the results depend on the processing

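No gene was called by limma under any of the alternatives tried, while the count at an unadjusted p under 0.05 was 1985 with quality weights per library and 939 to 1693 when 1 library was left out. Its split of 455 higher and 745 lower was 600 and 603 under quantile normalization and 569 and 603 under median centring. Of 1372 alternative values of 60 results, 1262 kept their direction and their side of the threshold. For differences of single genes none was called under any alternative, so there only the direction could change. That count is therefore no measure of how firm the results are. Where a value changed, the cause was not tested. Without the 3 libraries apart the difference was 0.47 for SPP1, 0.054 for ITGB5, 0.017 for MUC1, 0.037 for MUC4, -0.053 for CCN2, -0.026 for TLN1 and 0.23 for LGALS3. With the epithelial markers as a covariate it was -0.061 for ITGAV, 0.068 for MUC1, 0.18 for ITGB4, 0.14 for GALNT1, 0.47 for LGALS3 and -0.14 for ACP5. With estimated reads as a covariate it was 0.17 for SPP1, -9.55e-05 for VWF, -0.00108 for TLN1 and 0.041 for LGALS3. With quality weights it was 0.013 for SPP1, -0.034 for VWF, -0.048 for CD34 and -0.11 for ACP5, and under quantile normalization 0.014 for ITGB4. None of these was called. Leaving out single libraries gave -0.24 to 0.20 for SPP1, -0.0097 to 0.21 for ITGAV, -0.15 to 0.011 for ITGB5, -0.29 to 0.0042 for MUC1, -0.15 to 0.14 for ITGB4, -0.032 to 0.16 for VWF, -0.058 to 0.14 for CD34, -0.21 to 0.0010 for GALNT1, -0.0023 to 0.22 for ACTN4, -0.048 to 0.11 for TLN1, -0.24 to 0.17 for LGALS3 and -0.068 to 0.24 for ACP5. The log2 ratio to ITGAV then lay at -0.037 to 0.20 for ITGB1, -0.96 to -0.48 for ITGB3 and -0.54 to -0.23 for ITGB6. The difference in spread lay at -0.051 to 0.095 for ITGAV, -0.020 to 0.032 for ITGB1, -0.050 to 0.44 for ITGB3, -0.19 to 0.080 for ITGB6, 0.18 to 0.34 for MUC1 and -0.20 to 0.23 for MUC4. Without the 3 libraries apart it was -0.29 for SPP1, -0.095 for ITGAV, -0.23 for ITGB3, -0.25 for ITGB6 and -0.022 for MUC4. Correlations with 1 library left out lay at 0.52 to 0.65 for ITGAV and ITGB6, 0.59 to 0.73 for ITGB3 and ITGB5, 0.64 to 0.84 for ITGB3 and ITGB6, 0.62 to 0.87 for ITGB3 and MUC4, and 0.32 to 0.81 for ITGB6 and MUC4. Without the 3 libraries apart, with 12 animals, r missed the threshold for ITGAV and ITGB6 (0.62), ITGB3 and ITGB5 (0.67), ITGB3 and ITGB6 (0.72) and ITGB6 and MUC4 (0.59). After median centring it missed it for ITGAV and ITGB6 (0.58). After estimated reads were taken out, an alternative chosen after seeing the data, SPP1 passed with ITGAV (0.66) and with ITGB3 (0.64). No paired analysis was possible because the replicate numbers follow the order of the records and pair no animals. The estimated depth limits ITGB3 most, with as few as 136 reads in a library.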

Other observations

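MUC4, MUC20, MUC13 and ITGB5 lie within 1.40 Mb of chromosome 13 (Sscrofa11.1), a stretch long studied in pigs for susceptibility to enterotoxigenic Escherichia coli. MUC20 lies at chr13:134254978-134265950, next to MUC4, and MUC13 at chr13:135416709-135446337, next to ITGB5. These relations were looked at after the positions and values had been seen. MUC20 and MUC4 had r = 0.67 and rho = 0.55 (permutation p adjusted over 4 relations = 0.0444), but without the 2 animals farthest from the median of MUC20 r was 0.05, so the relation rested on them. MUC20 with ITGB5, MUC13 with MUC4 and MUC13 with ITGB5 had r = 0.31, 0.24 and 0.27 (adjusted permutation p = 0.372 each).

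Uterine gland markers, 4 of 6 tested and SPINK1 at the floor throughout, differed in mean log2 level by -0.24, low minus high iCrit (exact permutation p = 0.0242, the smallest of 10 marker lists, unadjusted). Their sums gave no such order, with medians of 142070 in low iCrit and 140870 in high iCrit gilts, and ACP5 alone averaged 91011. Epithelial markers differed by -0.19 and granulocyte markers by -0.82 (exact permutation p = 0.0923 and 0.0942, unadjusted). Stroma markers, all 10 tested, differed by 0.27 (exact permutation p = 0.108), with sums of 200000 to 621260 in low iCrit and 171720 to 298080 in high iCrit gilts.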
